A study of Mus musculus with 8 samples.

Results

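Fos, Jun, Junb, Egr1 and Ier2 are immediate early genes, and their mRNA was followed in mouse neurosphere cells that had been exposed to an inhibitor of histone deacetylases, an inhibitor of DNA methylation, or both. They were taken by gene symbol: every probe set that the array annotation assigns to these 5 genes was included, which gave 8 probe sets of the 12488 on the array. Fos, Junb and Egr1 had 2 probe sets each, and Jun and Ier2 had 1 each. Of the 8, 6 were bright enough to test, among 7987 tested on the whole array. The Fos probe set 161716_at and the Egr1 probe set 161802_i_at were not.

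Neurospheres are floating cultures of neural stem and progenitor cells. These were grown from forebrains of mouse embryos at embryonic day 14.5, each forebrain isolated individually, and all 4 groups came from embryos that carry a bcl2 transgene, a gene that protects cells from apoptosis. The promoter that drives the transgene is not given in the sources used here. Cells were left untreated, or were exposed for 2 days to 500 nM 5-aza-2′-deoxycytidine (AzaC), to 150 nM trichostatin A (TSA), or to AzaC and TSA together (AzaC/TSA). Each group had 2 arrays, 1 from each of 2 independent experiments, and arrays are named below by treatment and experiment. The labels name no vehicle-treated cells.

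Immediate early genes are transcribed within minutes of a stimulus such as a growth factor, without the need for newly made protein, and in most cells their mRNA soon declines again. Proteins of the Fos and Jun families pair through leucine zippers to form the transcription factor AP-1, Egr1 is a zinc finger factor that binds GC-rich promoter elements, and all of them in turn switch on later genes. TSA blocks enzymes that remove acetyl groups from histones, and AzaC is built into DNA, where it traps DNA methyltransferases.

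The promoters of Fos, Jun and Junb are shown because the tested probe sets of these AP-1 genes were all brighter with TSA in the data below. RefSeq promoter entries on build GRCm38.p6 were matched by symbol for 3 of the 5 genes, and Egr1 and Ier2 had none. Each line gives the 250 bases before the annotated start, 5′ to 3′ on the strand of the gene, with motif matches in capitals.
Fos, chr12:85473640-85473889, plus strand: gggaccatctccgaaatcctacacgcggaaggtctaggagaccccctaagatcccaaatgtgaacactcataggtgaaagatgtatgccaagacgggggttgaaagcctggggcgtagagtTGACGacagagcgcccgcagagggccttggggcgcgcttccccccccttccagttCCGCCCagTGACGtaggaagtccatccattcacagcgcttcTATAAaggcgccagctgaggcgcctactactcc
Jun, chr4:95052223-95052472, minus strand: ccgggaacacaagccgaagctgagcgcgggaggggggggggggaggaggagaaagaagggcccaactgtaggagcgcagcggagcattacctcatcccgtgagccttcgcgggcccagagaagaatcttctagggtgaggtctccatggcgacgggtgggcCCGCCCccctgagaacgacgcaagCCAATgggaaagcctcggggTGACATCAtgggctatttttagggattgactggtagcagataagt
Junb, chr8:84978749-84978998, minus strand: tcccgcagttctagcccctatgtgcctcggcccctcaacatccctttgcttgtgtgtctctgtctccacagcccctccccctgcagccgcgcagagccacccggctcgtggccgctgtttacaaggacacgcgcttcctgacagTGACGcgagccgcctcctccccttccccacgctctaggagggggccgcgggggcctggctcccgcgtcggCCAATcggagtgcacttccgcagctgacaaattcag
Motifs were searched on both strands of these windows, and bases farther upstream were not searched. The AP-1 site TGACTCA, the cAMP response element TGACGTCA and the CArG box, the core of the serum response element, had 0 matches in these 3 windows, and they occurred in 4.46%, 1.55% and 1.47% of all 32851 RefSeq promoters of this length. The GC box GGGCGG, found in 32.7% of promoters, was present on the opposite strand in Fos and Jun. The remaining capitals mark motifs chosen after the sequences had been seen. They are TGACG, which is part of TGACGTCA and was in 17.8% of promoters, TATAA in 22.8%, CCAAT in 33.8% and the AP-1-like site TGACATCA in 2.93%. Fos had 2 TGACG matches, the nearer ending 62 bases before the start, and a TATAA match ending 29 bases before it. Jun had a CCAAT match and, ending 38 bases before the start, a TGACATCA match. Junb had a TGACG match and a CCAAT match that ended 32 bases before the start. All 3 windows were rich in G and C, with 58.4% for Fos, 61.2% for Jun and 66.4% for Junb against a median of 52.4%. They held 15, 15 and 20 CpG dinucleotides against a median of 6. Their observed over expected CpG ratios of 0.705, 0.676 and 0.762 stood at percentiles 73.6, 71.5 and 78 of all promoters.

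The values are the deposited signals, on a linear scale with the same trimmed mean, 200.1, on every array. The median signal ran from 59.2 to 72.7 and the share of probe sets at a signal of 50 or more from 53.1% to 58.3%. The 5′ to 3′ ratio of actin control probes, a sign of RNA integrity, was 0.332 to 0.471 on the arrays without TSA and 0.29 to 0.39 on those with it. That of Gapdh was 0.867 to 1.04 and 0.738 to 0.982. The stem cell markers Nes (1049 to 3003) and Sox2 (2391 to 4830.4) were bright on all 8 arrays, while the Vim probe set stayed at 56 or less and was not tested. Fabp7 (1063 to 10920), Notch1 (489 to 1124) and Hes1 (263 to 414) of the same list were also above 50 throughout. Pax6 (39.2 to 159.7), Prom1 (4.2 to 181.2), Msi1 (10.3 to 78) and Hes5 (12.4 to 93.8) were under 50 on 1 or more arrays. Marker lists were read in the comparison of the 4 arrays with TSA against the 4 without, in which 6.95% of all probe sets were higher and 7.54% lower. Of 8 tested neural stem and progenitor markers 0 rose and 1 fell with TSA, Fabp7 (log2 change -1.89, limma adjusted p = 0.00459), and their summed signal was 15191 to 17784 without TSA and 6422 to 14201 with it. Among 5 neuronal markers that reached a signal of 50 both with and without TSA, Syp and Stmn2 rose and Tubb3 fell (sums of the list 2094 to 2886 and 1807 to 2665). Among 5 astrocyte markers Clu rose and S100b and Sparcl1 fell (sums 1617 to 5326 and 1597 to 3286). Of 3 tested markers of microglia and macrophages Cd68 rose. Cx3cr1 (28.3 to 260.3 without TSA, 29.6 to 123.1 with it) and Csf1r (35.4 to 123.2 and 7.8 to 72.9) did not pass. Aif1, Itgam, Adgre1, Ptprc and Lyz2 were under a signal of 50 on every array (sums of the list 186 to 385 and 287 to 621). Of 3 fibroblast markers 2 reached a signal of 50 without TSA, and 0 of these passed (sums 481 to 623 and 433 to 602). Of 3 blood, 1 endothelial and 3 oligodendrocyte markers that reached 50 on both sides 0 passed in either direction, with sums of the lists up to 289, 249 and 239. Snap25 (4.3 to 31.8 without TSA, 252 to 615 with it), Dcn (7 to 34.7 and 43.2 to 78.3), Dcx and Cd34 reached the filter signal of 50 only on arrays with TSA, so a rise was fixed by the filter and is not counted. Syp and Cd68 were at most 50.1 and 53 without TSA. The part of these markers and of the control ratios in the changes of the immediate early genes was not tested. In these bulk samples a change in the share of cells that express a gene and a change in its mRNA per cell cannot be told apart.

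The mRNA of Fos, Junb, Egr1 and Ier2 rose when the 4 arrays with TSA were set against the 4 without it, and that of Jun was higher without passing the test. Of the 6 tested probe sets 5 reached the filter signal of 50 on both sides, and for these the 4 arrays with TSA lay above the 4 without it, whether or not AzaC was present. Over the whole array this held for 874 of 7987 probe sets, 10.9%. The sixth, 102362_i_at of Junb, reached 50 only with TSA, so its rise was fixed by the filter, and it is described below without being counted. Against untreated cells, TSA alone raised Fos 13.6-fold, Egr1 4.50-fold and Ier2 4.01-fold. These 3 of the 5 probe sets passed the threshold, an adjusted p under 0.05 in limma, with 0 lower. Of all probe sets 401 passed (5.02%), and 167 of them were higher (2.09%). Among the 7433 that reached 50 on both sides, 1.99% were higher. The 5 had a median log2 change of 2.0, where all tested probe sets had 0.01. AzaC alone changed 0 of the 5 past the threshold, and 0 of all 7987 tested (0%). The 2 arrays of each group came from different experiments, so the p-values measure a spread within groups that includes the difference between experiments. The labels call the experiments independent and say no more of the arrays' sources, so how far this spread is biological is not known.

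**Figure D1:**
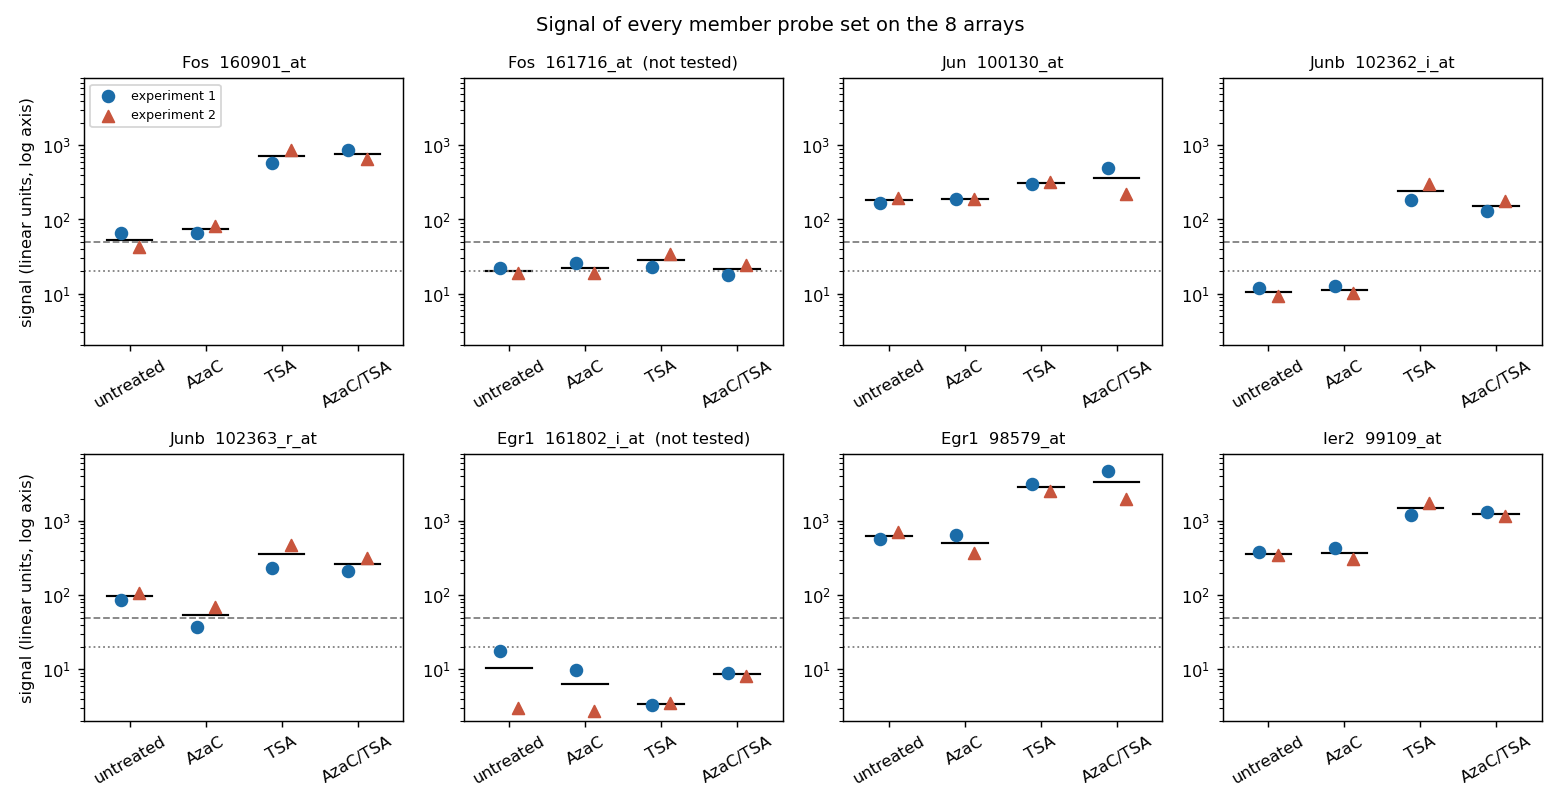
Signal (linear units, log axis) of each of the 8 probe sets on the 8 arrays, by treatment; circles are experiment 1, triangles experiment 2 and bars the group mean, with the floor of 20 dotted and the filter signal of 50 dashed. On the 6 tested probe sets every array with TSA stands above every array without it. Junb 102362_i_at was tested only because its arrays with TSA were bright, so it is not counted. Among the other 5 the margin is widest for Fos (581 against 81.6) and the narrowest for Jun (218 against 194).

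Fos, the leading partner of the Jun proteins in AP-1, had the largest of the changes that could be measured on both sides. The probe set 160901_at gave signals of 64.9 and 42.2 in untreated cells of experiments 1 and 2, and 65.6 and 81.6 with AzaC. With TSA it gave 581 and 875, and with AzaC/TSA 877 and 665. The arrays fell into a dim group without TSA and a bright group with it, and the dimmest array with TSA was 7.12 times the brightest without. The log2 change was 3.77 for TSA against untreated (SE 0.36, 95% interval 2.96 to 4.57, adjusted p = 0.00155), the rise of rank 12 among 7987. It was 3.87 for AzaC/TSA against untreated (SE 0.36, 3.06 to 4.67, 14.6-fold, adjusted p = 0.0015), of rank 8. Both comparisons use the same untreated arrays. Fos passed in each of 19 alternative analyses of these contrasts, with adjusted p up to 0.0308 for TSA and 0.0365 for AzaC/TSA. The other Fos probe set, 161716_at, ran from 18.1 to 34.1 over all 8 arrays, near the floor of 20 under which signals were not distinguished. Its groups with and without TSA overlapped, and it had no test.

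Jun, which can pair with Fos or with itself, had the smallest difference of the 6 probe sets. Its signals were 169 and 194 in untreated cells and 192 and 189.6 with AzaC, a narrow range. They were 304 and 319.8 with TSA and 499.7 and 218 with AzaC/TSA. The arrays with TSA were all brighter, but AzaC/TSA 2 exceeded untreated 2, the brightest array without TSA, only 1.12 times, and the AzaC/TSA arrays differed 2.29-fold from each other. The log2 change did not pass for TSA against untreated (0.78, SE 0.39, interval -0.09 to 1.66, limma adjusted p = 0.292) or for AzaC/TSA against untreated (0.86, SE 0.39, -0.01 to 1.74, adjusted p = 0.29). With the 4 arrays of TSA exposure set against the 4 without it, the change was 0.79 (SE 0.27, 0.17 to 1.40), 1.72-fold, with an adjusted p = 0.0891. It passed with the experiment as a block (adjusted p = 0.0469) and without AzaC/TSA 2 (1.09, adjusted p = 0.0223).

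Junb is a Jun protein that activates transcription less strongly than Jun at many promoters. Its 2 probe sets carry the suffixes i and r, which Affymetrix gives to sets chosen under relaxed design rules. On 102362_i_at all 4 arrays without TSA were under the floor, with 11.9 and 9.4 untreated and 12.6 and 10.1 with AzaC. TSA gave 186 and 298, and AzaC/TSA 130 and 179. This probe set was tested only because its arrays with TSA were bright, so its difference was bound to appear and its changes are lower bounds, given without a test. The log2 change was at least 3.56 with TSA, 11.8-fold, and at least 2.93 with AzaC/TSA, 7.62-fold.

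The r probe set of Junb, 102363_r_at, was measurable on every array. Its signals were 86.4 and 108 untreated, 37.5 and 69.3 with AzaC, 232 and 483 with TSA, and 213 and 322 with AzaC/TSA. The dimmest array with TSA was 1.98 times the brightest without, and in each of the 4 groups experiment 2 was the brighter. Against untreated the change did not pass for TSA (1.79, SE 0.47, interval 0.74 to 2.85, 3.47-fold, limma adjusted p = 0.0647) or AzaC/TSA (1.44, SE 0.47, 0.38 to 2.5, 2.72-fold, adjusted p = 0.155). With the experiment as a block both passed, with adjusted p = 0.00655 and 0.0225. That block raised the calls over the whole array from 401 to 971 for TSA and from 249 to 746 for AzaC/TSA.

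Egr1, the zinc finger factor, was bright in every group on 98579_at. Its signals were 568 and 701 untreated, 652 and 367 with AzaC, 3162 and 2557 with TSA, and 4670.3 and 1959 with AzaC/TSA. The lowest array with TSA was 2.79 times the highest without, and the AzaC/TSA arrays differed 2.38-fold. The log2 change was 2.17 for TSA (SE 0.42, interval 1.21 to 3.13, adjusted p = 0.0254) and 2.26 for AzaC/TSA (SE 0.42, 1.30 to 3.22, 4.79-fold, adjusted p = 0.026). Each call was lost when single arrays were left out. For TSA against untreated the adjusted p rose to 0.124 and 0.138 when untreated 1 or 2 was omitted, and to 0.141 and 0.12 when TSA 1 or 2 was, with changes from 2.02 to 2.32. For AzaC/TSA it rose to 0.13, 0.167 and 0.114 when untreated 1, untreated 2 or AzaC/TSA 1 (change 1.63) was omitted. The other Egr1 probe set, 161802_i_at, was under the floor on all 8 arrays, with 2.7 to 17.8, so it gives no level.

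Ier2 is a small nuclear protein of the immediate early response. Its signals were 381 and 346 untreated and 429 and 307 with AzaC. They were 1198 and 1769 with TSA, and 1327 and 1184 with AzaC/TSA. The lowest array with TSA was 2.76 times the highest without, and among the 6 tested probe sets the AzaC/TSA arrays of Ier2 lay closest together, 1.12-fold apart. The log2 change was 2.0 for TSA (SE 0.28, interval 1.36 to 2.65, adjusted p = 0.00811) and 1.79 for AzaC/TSA (SE 0.28, 1.14 to 2.43, 3.45-fold, adjusted p = 0.0149). The TSA call was lost without untreated 2 (1.93, adjusted p = 0.0885) or TSA 2 (1.72, adjusted p = 0.0746). That of AzaC/TSA was lost without either untreated array or either AzaC/TSA array, with adjusted p from 0.0597 to 0.137.

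AzaC/TSA against untreated gave 3 of the 5 probe sets higher and 0 lower: Fos, Egr1 and Ier2. Over the array 249 probe sets passed (3.12%), 103 of them higher (1.29%), and the median change of the 5 was 1.79. Among probe sets that reached 50 on both sides 1.21% were higher. TSA was also compared within AzaC-treated cells, which asks for the effect of TSA where the methylation inhibitor is present in both groups. AzaC/TSA against AzaC called 4 of the 5 higher and 0 lower, where the array had 223 calls (2.79%) and 89 higher (1.11%). Fos rose 10.4-fold (log2 3.38, SE 0.36, adjusted p = 0.00277), Egr1 6.18-fold (2.63, SE 0.42, adjusted p = 0.0155) and Ier2 3.45-fold (1.79, SE 0.28, adjusted p = 0.015). Junb rose 5.14-fold on the r probe set (2.36, SE 0.47, adjusted p = 0.036), and Jun did not pass (0.79, interval -0.08 to 1.67, adjusted p = 0.325). The call of the r probe set of Junb held in 10 of 19 alternatives and was lost when any single untreated, AzaC or AzaC/TSA array was left out (adjusted p up to 0.159). The calls of Egr1 and Ier2 were lost without AzaC 2 or AzaC/TSA 1 (adjusted p from 0.0753 to 0.0982), and that of Ier2 also without AzaC/TSA 2 (0.0621).

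**Figure D2:**
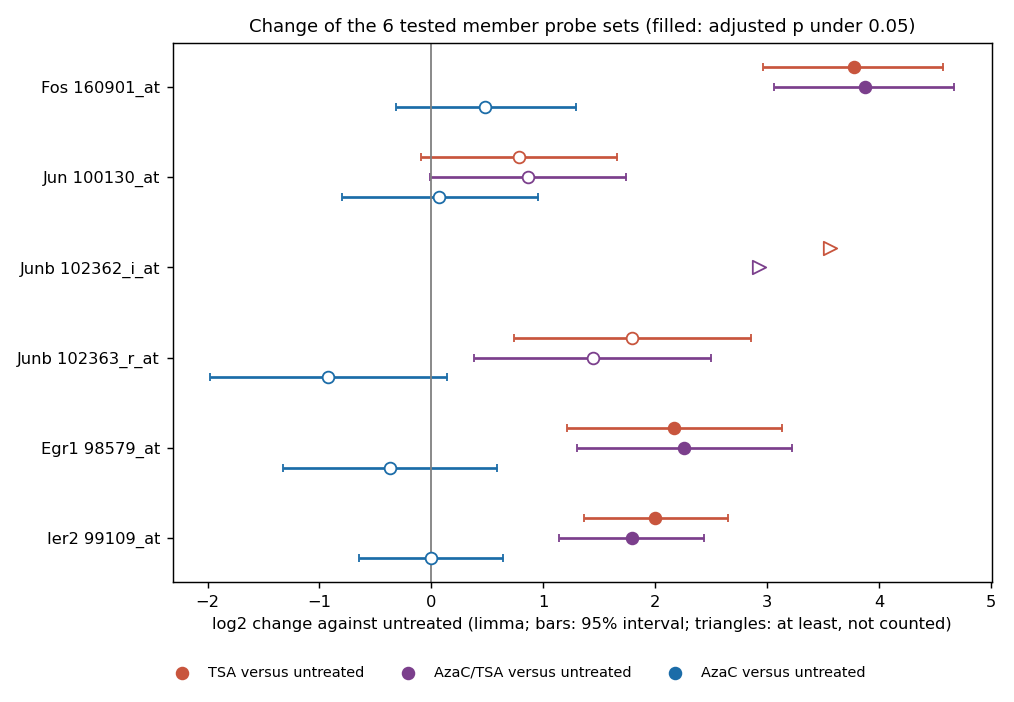
Log2 change against untreated cells (x axis) of the 6 tested probe sets for TSA, AzaC/TSA and AzaC, with limma 95% intervals; filled symbols passed an adjusted p of 0.05, and open triangles are lower bounds that were not counted. Fos stands at 3.77 and 3.87 with TSA and AzaC/TSA, Jun at 0.78 and 0.86 with intervals that reach 0, and the AzaC intervals all span 0 in this fit; Junb 102362_i_at has no AzaC value because untreated and AzaC arrays were under the floor.

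The most precise estimates came from all 4 arrays with TSA against all 4 without it. In this comparison 555 probe sets of the array were higher (6.95%) and 602 lower (7.54%), and 4 of the 5 passed as higher. Fos rose 11.9-fold (log2 3.58, SE 0.25, interval 3.01 to 4.14, adjusted p = 0.000119), which again ranked 12 among the rises. Egr1 rose 5.28-fold (2.40, SE 0.30, 1.72 to 3.08, adjusted p = 0.00161) and Ier2 3.72-fold (1.90, SE 0.20, 1.44 to 2.35, adjusted p = 0.000749). Junb rose 4.22-fold on the r probe set (2.08, SE 0.33, 1.33 to 2.83, adjusted p = 0.00459). These 4 calls held in each of 18 alternatives, the omission of each array among them, with the highest adjusted p, 0.0464, on the r probe set of Junb. The median change of the 5 was 2.08, where that of all tested probe sets was -0.03.

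Within each experiment the arrays with TSA were above the untreated array on the tested probe sets. Each such difference is between 1 array and 1 other and has no test of its own. From untreated to TSA, Fos changed by 3.16 in experiment 1 and 4.37 in experiment 2 on the log2 scale, Egr1 by 2.48 and 1.87, and Ier2 by 1.65 and 2.35. Junb changed by 1.43 and 2.16 on the r probe set, and Jun by 0.84 and 0.72. The i probe set of Junb changed by at least 3.21 and 3.90. It was tested only through its arrays with TSA, so these values are not counted. From untreated to AzaC/TSA the values of Fos (3.76 and 3.98) and Ier2 (1.80 and 1.78) were close in both experiments. Those of Jun (1.56 and 0.17) and Egr1 (3.04 and 1.48) were smaller in experiment 2. A test of whether the TSA response differed between experiments called 0 of the 6 (6 of 7987 over the array, 0.0751%). At an unadjusted p under 0.05 it had 0 of the 6 and 810 of all (10.1%). The differences, experiment 2 minus 1, were -0.65 for Jun (adjusted p = 0.657), -0.52 for Egr1 (0.735), 0.51 for Ier2 (0.629), 0.25 for Fos (0.898) and 0.23 for the r probe set of Junb (0.911). On the i probe set the untreated and AzaC arrays of both experiments were under the floor, so its difference is not given. The experiments themselves differed at 337 probe sets (4.22%), of which 0 were among the 6. At an unadjusted p under 0.05 there were 1645 (20.6%), and 2 of the 6 were among them: the r probe set of Junb was higher in experiment 2 (0.71, SE 0.22, adjusted p = 0.109) and Egr1 was lower (-0.52, SE 0.23, adjusted p = 0.233).

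AzaC was compared with untreated cells to see whether inhibition of DNA methylation alone moved these genes. limma called 0 of the 6 probe sets and 0 of 7987 (0%), while 175 (2.19%), and 0 of the 6, had an unadjusted p under 0.05. Of the 6, the i probe set of Junb could not be called, because its untreated and AzaC arrays were all under the floor. The log2 change of Fos was 0.48 (interval -0.32 to 1.29), that of Egr1 -0.37 (-1.33 to 0.59) and that of Ier2 0.00 (-0.65 to 0.64). That of Jun was 0.07 (-0.80 to 0.95) and turned to -0.09 with median centring. Junb stood at -0.92 on the r probe set (SE 0.47, -1.98 to 0.14), the largest of these differences. With the experiment as a block its interval was -1.63 to -0.21, and 1 of the 6 and 328 of all probe sets (4.11%) had an unadjusted p under 0.05, with 0 called (adjusted p = 0.994 for Junb). Without the block every adjusted p was 1.

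With TSA already present, AzaC again gave no call. For AzaC/TSA against TSA, 0 of the 6 and 0 of all probe sets passed (0%), with 185 (2.32%) and 0 of the 6 at an unadjusted p under 0.05. The changes were 0.10 for Fos (interval -0.71 to 0.90), 0.08 for Jun (-0.79 to 0.96), 0.09 for Egr1 (-0.87 to 1.05) and -0.22 for Ier2 (-0.86 to 0.43). Junb stood at -0.63 (-1.61 to 0.36) and -0.35 (-1.41 to 0.71) on its i and r probe sets. The interaction asks whether the AzaC and TSA changes add on the log2 scale. It passed for 0 of the 6 and 0 of 7987 (0%; unadjusted 142, 1.78%, and 0 of the 6), with -0.38 for Fos (-1.52 to 0.75) and 0.46 for Egr1 (-0.90 to 1.81). The interaction of the i probe set of Junb rests on its arrays with TSA alone, because the others were under the floor. Over the 4 arrays with AzaC against the 4 without, 0 of the 6 and 0 of all passed (unadjusted 203, 2.54%, and 0 of the 6). In that comparison the changes ran from -0.64 (-1.39 to 0.11) on the r probe set of Junb to 0.29 (-0.28 to 0.86) for Fos. With the block the interval of that Junb probe set was -1.14 to -0.13 (adjusted p = 0.901), and 408 probe sets (5.11%) had an unadjusted p under 0.05.

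Within experiments the AzaC values differed in sign. In experiment 2 all 6 probe sets were lower with AzaC/TSA than with TSA, by log2 values from -0.38 for Egr1 to -0.74 for the i probe set of Junb. In experiment 1 Fos (0.59), Jun (0.72), Egr1 (0.56) and Ier2 (0.15) were higher with AzaC/TSA, and only the Junb probe sets (-0.51 and -0.12) were lower. Each of these differences is between 1 array and 1 other, and 2 of the 6 probe sets are of Junb. The share of all probe sets with such signs is not given here. A test of whether the AzaC change differed between experiments, added after these values had been seen, called 0 of the 6 and 0 of 7987 (0%). At an unadjusted p under 0.05 it had 511 (6.4%), and 1 of the 6, Egr1 (-1.04, SE 0.33, interval -1.76 to -0.32, adjusted p = 0.538).

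**Figure D3:**
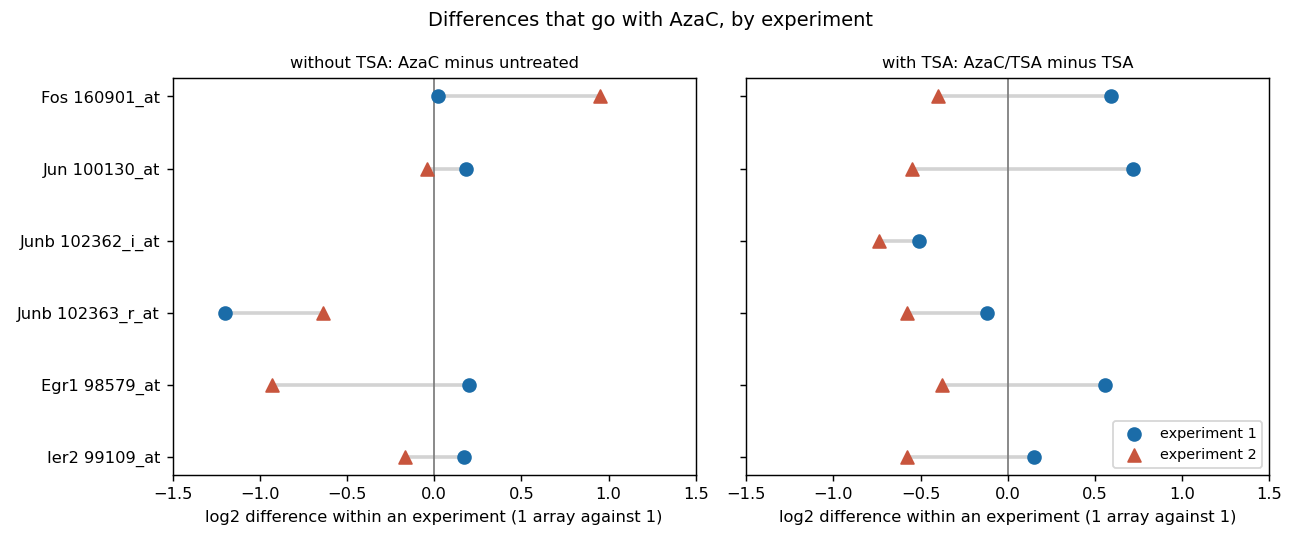
Log2 difference that goes with AzaC (x axis) within experiment 1 (circles) and experiment 2 (triangles), without TSA on the left and with TSA on the right, 1 array against 1 for each point. With TSA, Fos, Jun, Egr1 and Ier2 lie right of 0 in experiment 1 and left of it in experiment 2; Junb 102362_i_at is not drawn on the left because all 4 arrays were under the floor.

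The other genes of the pathway were read in the comparison of 4 arrays with TSA against 4 without, against the 6.95% of all probe sets that were higher and the 7.54% that were lower. With the experiment as a block these shares were 11.7% and 12.2%. Of 14 other AP-1 and related leucine zipper genes 12 were on the array and 10 were tested, of which 0 rose and 1 fell. Atf4, a factor of the amino acid stress response, fell by 0.83 (adjusted p = 0.0325), from 1522 to 2216 without TSA to 804 to 1302 with it. That call held in 10 of 18 alternatives and was lost without any single array other than TSA 2 and AzaC/TSA 2 (adjusted p up to 0.109). The closest relative of Fos, Fosb, had 144, 85.3, 108 and 68.7 without TSA and 74.2, 96.9, 91 and 91.1 with it (-0.15), and the groups overlapped. Jund, the Jun protein present in resting cells, was bright throughout, at 4844 to 7021 without TSA and 6879 to 10786 with it (0.58, adjusted p = 0.0863). Jund and Atf2 (0.55, adjusted p = 0.148) passed with the experiment as a block (adjusted p = 0.00924 and 0.0444). The others did not pass: Batf3 0.61, Mafk 0.34, Fosl2 -0.55, Mafg -0.50, Maff -0.38, and Atf3 -0.23 on its brighter probe set and 0.58 on the other. Fosl1 and Batf were too dim to test, and the median of the 10 was -0.19.

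In the Egr family the zinc finger factor Egr2, a close relative of Egr1, rose. Its signals were 102 and 166 untreated, 95.2 and 111 with AzaC, 1506 and 978 with TSA, and 1365 and 667 with AzaC/TSA. The groups with and without TSA were far apart, and the change over 4 arrays against 4 was 3.22 (SE 0.29, adjusted p = 0.000338), held in each of 18 alternatives. Nab1 and Nab2, co-repressors that bind Egr proteins, did not pass (0.76, adjusted p = 0.0735, and -0.49), and Nab1 passed with the experiment as a block (adjusted p = 0.00934). Wt1, a related zinc finger factor, did not pass either (-0.13), so that 1 of 4 tested genes rose and 0 fell, with a median of 0.32.

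Among 13 tested genes for other immediate early transcription factors 3 rose and 0 fell, with a median of 0.34. Cebpb, a leucine zipper factor outside AP-1, rose by 1.27 (SE 0.23, adjusted p = 0.00791), from 81 to 161 without TSA to 234 to 324 with it. Klf6 rose by 0.94 (adjusted p = 0.0122) and the circadian regulator Per1 by 1.43 (adjusted p = 0.0187, held in 14 of 18 alternatives and lost without either TSA array or AzaC/TSA 1). Klf9 (0.62) passed with the block only (adjusted p = 0.0208). The others did not pass: Klf4 0.82, Cebpd 0.44, Klf10 0.34, Nr4a2 0.29, Bhlhe40 0.16, Nfil3 -0.39, Myc -0.54, Irf1 -0.69, and Nr4a1 -0.70. Nr4a1, a nuclear receptor often induced beside Fos, had 42.9 to 70.9 without TSA and 10.8 to 56.3 with it. Klf2 was too dim to test.

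Of 23 tested immediate early genes that encode no transcription factor, 20 reached a signal of 50 on both sides, and 5 of these rose and 0 fell, with a median of 0.77. With the experiment as a block 9 of the 20 rose and 1 fell. The gains were Dusp1 (0.77, adjusted p = 0.037), Plk2 (0.85, 0.0234), Rgs2 (0.84, 0.0454) and Pim1 (0.77, 0.0343), and the fall was Zfp36l2 (-0.73, 0.0174). Btg1, an antiproliferative gene, rose by 1.91 (SE 0.28, adjusted p = 0.00363), which held in each of 18 alternatives. The mRNAs of Tiparp (1.05, adjusted p = 0.0165), the kinase Sgk1 (1.11, adjusted p = 0.0237), Btg2 (1.26, adjusted p = 0.0322) and the growth arrest gene Gadd45a (0.72, adjusted p = 0.0379) rose too, and held in 14, 10, 11 and 9. Tiparp was lost without untreated 1, AzaC 1 or TSA 1 (adjusted p up to 0.0658), and Btg2 also without TSA 2 or AzaC/TSA 2 (up to 0.105). Sgk1 was lost without any single array but AzaC/TSA 2 (up to 0.0848), and Gadd45a without any but AzaC 1 (up to 0.115). The other 3 genes, Zfp36, Ccn1 and Ccn2, reached 50 only on arrays with TSA, so a rise was fixed by the filter and they were not counted. Zfp36, an RNA-binding protein that speeds decay of AU-rich mRNAs, gave 21.3, 16, 22.3 and 37 without TSA and 172, 130, 150.2 and 106 with it.

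Of 17 tested genes for upstream kinases and activators of the immediate early response, such as the MAP kinases, 0 passed in either direction, with a median of -0.23. Mapk7, which encodes the kinase ERK5, fell with the block only (-0.80, adjusted p = 0.0397). Of 15 tested late target genes of AP-1 and Egr1, 3 rose and 2 fell. With the block 5 rose and 2 fell, with Nqo1 (1.28, adjusted p = 0.0147) and Txnrd1 (0.66, 0.0185) gained. The inhibitor of matrix metalloproteinases Timp1 had 137 to 201 without TSA and 413 to 1971 with it (2.30, adjusted p = 0.00237). The metallothioneins Mt1 (2.22, adjusted p = 0.00249) and Mt2 (2.53, adjusted p = 0.00294) bind heavy metals. Cyclin D1, Ccnd1, fell (-1.72, adjusted p = 0.0318, held in 10 of 18 alternatives), as did the vascular growth factor Vegfa (a fall of at least 1.65 in size, log2 -1.65, adjusted p = 0.0433, held in 8 of 18). The dimmer tested probe set of Ccnd1 did not pass (-1.56, adjusted p = 0.0534 in limma). Against untreated it stood at -2.36 with TSA and -0.08 with AzaC/TSA, where the brighter had -1.98 and -1.29. The call of Ccnd1 was lost without any single array but TSA 2 and AzaC/TSA 2 (adjusted p up to 0.104), and that of Vegfa without any but AzaC/TSA 2 (up to 0.15). AzaC against untreated, AzaC/TSA against TSA, the interaction and pooled AzaC called 0 genes of these 6 lists. 
Against untreated cells alone fewer list genes passed, where 2.09% of all probe sets were higher with TSA and 1.29% with AzaC/TSA. With TSA 0 of the AP-1 relatives, 1 of the Egr genes (Egr2), 1 of the other transcription factors (Cebpb), 1 of the 20 other immediate early genes (Btg1) and 3 of the late targets (Timp1, Mt1 and Mt2) rose, and 0 fell. Each of these calls but that of Egr2 was lost without 1 or more single arrays. The call of Btg1 (1.76, adjusted p = 0.041) held in 9 of 19 alternatives and was lost without any single untreated, TSA or AzaC/TSA array, and that of Cebpb (1.67, adjusted p = 0.0248) without any single untreated or TSA array. Timp1 was lost without either untreated array or TSA 2, and Mt1 and Mt2 without untreated 2 or either TSA array. With the block Klf6 (adjusted p = 0.0223) and Odc1 (0.0497) also rose and Ccnd1 fell (0.0378), where 5.6% of all probe sets were higher and 6.56% lower. With AzaC/TSA Egr2, Cebpb, Mt1 and Mt2 rose and 0 fell. Each of these was lost without 1 or more single arrays, untreated 2 and AzaC/TSA 1 among them. With the block Btg1 (0.0169), Btg2 (0.025), Tiparp (0.0344), Timp1 (0.0365) and Txnrd1 (0.0306) also rose, where 4.38% of all probe sets were higher.

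**Figure D4:**
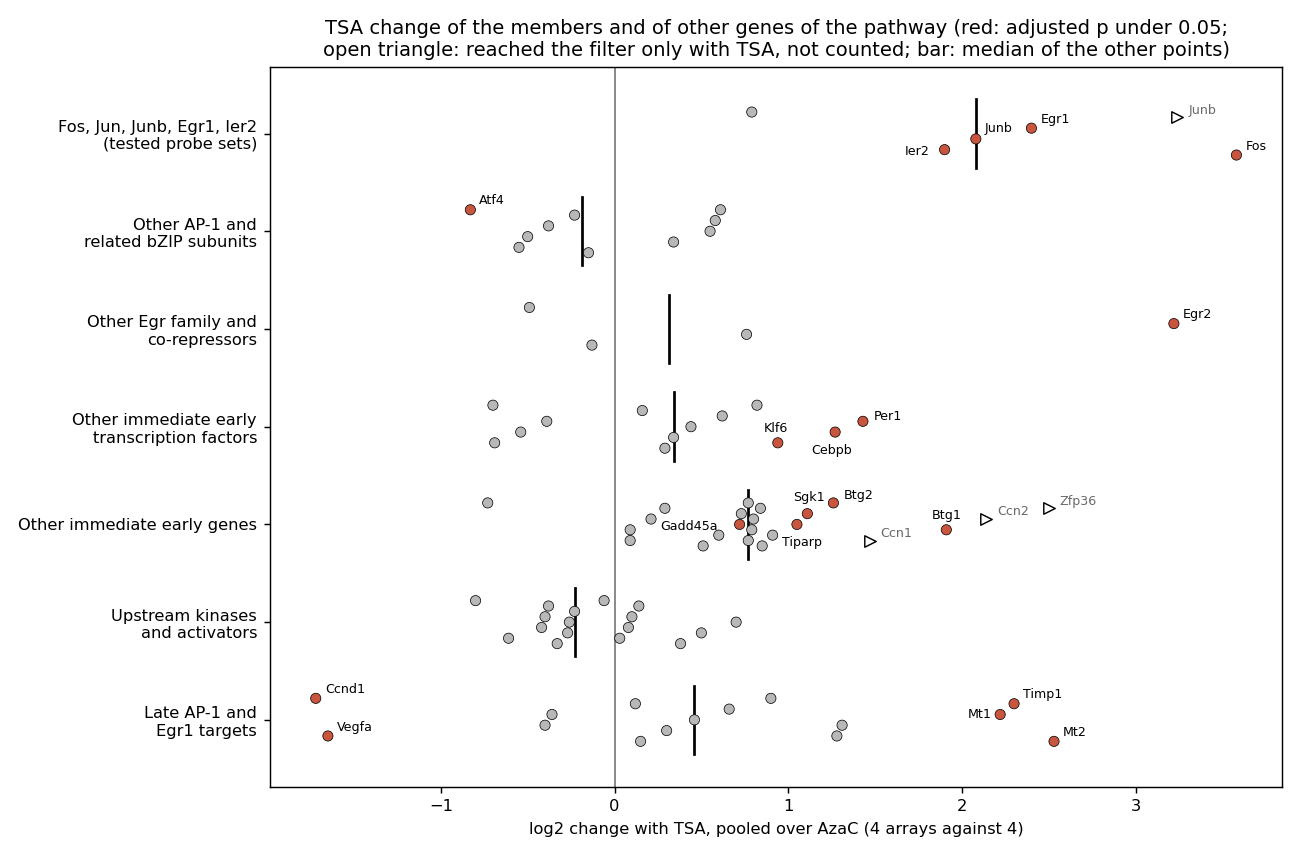
Log2 change with TSA, 4 arrays against 4 (x axis), of the 6 tested probe sets and of the tested genes of 6 lists (y axis); each point is a probe set, red points passed an adjusted p of 0.05 in limma, and bars are medians without the open triangles, which reached a signal of 50 only with TSA. The 5 other probe sets of the first line have a median of 2.08, while the list medians run from -0.23 for upstream kinases to 0.77 for immediate early genes that are not transcription factors; the change of Vegfa is at least the size drawn.

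The genes whose signal followed each of the 5 most closely over the 8 arrays are given as a description. The 8 arrays fall into those with and without TSA, so Pearson r is high for any gene that differs with TSA. For Fos they were Zkscan14 (r = 0.994), H2-Q5 (0.990, under the floor on 4 arrays) and Psmb1 (0.983). For Jun they were Actr3 (0.956), Jarid2 (0.938) and Sgk1 (0.933), and for Junb on the r probe set Psme4 (0.994), Vps29 (0.990) and Gclc (0.987). For Egr1 they were 2610524H06Rik (0.983), Mfge8 (0.981) and Cacul1 (0.979), and for Ier2 Atp6v1b2 (0.991), Ctsb (0.991) and Fam107b (0.990). Pairs with the i probe set of Junb are left out, because its arrays without TSA all shared the floor value. Between pairs of the other tested probe sets r ran from 0.622 for Jun with the r probe set of Junb to 0.973 for Fos with Ier2. After the mean of the arrays with TSA and of those without was taken out, r ran from -0.32 to 0.748. The highest of these was between Jun and Egr1, and AzaC/TSA 1 was the brightest array for each of them.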

How the data were processed

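RNA of 8 neurosphere cultures was hybridised to short-oligonucleotide arrays. The file holds intensity values, as deposited by the authors, linear and 1 per probe set and array. Every array has a 2%-trimmed mean of 200.1, so the authors scaled them. The software is not given in the sources used here. The 66 control probe sets were left out, signals under 10% of the trimmed mean (20) were raised to that floor, and log2 was taken. A change past the threshold whose lower group held an array under the floor is given as at least. Changes of that kind that did not pass, those of Fosl2, Maff, Wt1, Nr4a1 and Irf1, are printed as computed with the floor. Probe sets with 2 or more arrays at 25% (50) were tested, 7987 or 64.3%. Probe sets that reached 50 only with or only without TSA (all but 7433) had their direction fixed by that filter, and members and listed genes among them were not counted. This was decided after the data were seen.

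Group means over all 8 arrays were estimated with limma 3.58.1 (R 4.3.3, intensity trend, 4 residual degrees of freedom), two-sided, with Benjamini-Hochberg adjustment over 7987 probe sets and a threshold of 0.05. The titles number the experiments. Arrays of the same number deviated together from their group means (r of 0.203 to 0.411 in the 6 pairs of groups), so the numbers pair the arrays, and values with the experiment as a block are printed where they change a call given against untreated or with all arrays.

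Genes, lists and tests were chosen with earlier results of these data known. Named were the 5 genes, the 3 closest genes to each by r, list genes past the threshold (up to 8 a list) and all measured genes of the transcription factor lists. Zfp36l2 and Mapk7 were named after their values were seen. A listed gene with several probe sets was represented by the brightest. Alternatives were quantile or median normalization, other floors, an offset, other filters, no trend, robust eBayes, fits to the compared groups alone, the block, and each array left out.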

Additional observations from a re-analysis of the deposited data

Results flagged for a closer look

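In Jun, Egr1 and Ier2 the change with AzaC had opposite signs in the 2 experiments, both without and with TSA. For Jun the log2 change without TSA was 0.18 in experiment 1 and -0.04 in experiment 2, and with TSA it was 0.72 and -0.55. For Egr1 it was 0.20 and -0.93 without TSA, and 0.56 and -0.38 with TSA. For Ier2 it was 0.17 and -0.17 without TSA, and 0.15 and -0.58 with TSA. These 3 genes were named because their signs differed between the experiments, so the opposition follows from that choice. Every value of experiment 1 was above 0 and every value of experiment 2 below it, some of them close to 0. The share of all probe sets with such signs is not given here. Each value compares 1 array with 1 other. The difference between experiments was tested afterwards in limma, with all 8 arrays: it was -0.74 for Jun (adjusted p = 0.832), -1.04 for Egr1 (adjusted p = 0.538) and -0.53 for Ier2 (adjusted p = 0.839), and none passed.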

How the results depend on the processing

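With 2 arrays per group the calls against untreated rest on few values. No called result reversed. Counts here include the i probe set of Junb, whose rise was fixed by the filter, so its calls are no sign of stability. Among the 5 probe sets that reached the filter signal on both sides, 3 were called for TSA against untreated. For AzaC/TSA against untreated 3 of these 5 were called. For AzaC/TSA against AzaC, and for all arrays with TSA against all without, 4 of them were. Of the 6 probe sets, 4 were called for TSA against untreated, but 2 without the filter on low signals and 1 to 4 with single arrays left out. For AzaC/TSA against untreated the count of 4 became 1 without the filter and 1 with only the groups compared, and 1 to 4 with single arrays left out. For AzaC/TSA against AzaC the count of 5 became 2 without the filter and 1 with only the groups compared, and 1 to 5 with single arrays left out. A fit without an omitted array assumes that the lone array of its group varies like the others and also carries the difference between experiments. For 4 arrays with TSA against 4 without, 5 were called, and 5 to 6 under every alternative that kept the i probe set of Junb. For AzaC, the interaction and the experiments, 0 of the 6 were called under every alternative run.

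Over all probe sets the 401 calls of TSA became 135 without the filter, 216 without the intensity trend, 971 with the replicate block, 171 with only the groups compared and 56 to 367 with an array left out. The 249 calls of AzaC/TSA became 63, 152, 746, 49 and 14 to 223, and the 223 of AzaC/TSA against AzaC became 113, 135, 744, 45 and 48 to 158. The 1157 calls of pooled TSA became 672 without the filter, 1908 with the block and 575 to 804 with an array left out. The 337 of experiment 2 against 1 became 0 without the filter, 74 without the trend and 68 to 256, and the 6 for the TSA response by experiment 1, 0 and 0 to 7. Without the filter the comparisons with 0 calls gave 13 for AzaC against untreated, 11 for AzaC/TSA against TSA, 11 for the interaction (1 without the trend), 17 for pooled AzaC and 4 for the AzaC response by experiment. The cause was not tested. The block changed the calls of the r probe set of Junb against untreated and of Jun in pooled TSA, and no other call among the 6. Median centring moved the median change of all probe sets from 0.026 to -0.127 for AzaC against untreated, from -0.032 to 0.145 for the interaction and from 0.027 to -0.166 for the TSA response by experiment.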
